A study of Mus musculus with 37 samples.

Results

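Plet1, Sptssb, Dhrs9, Clca4b, Abca12 and Slc3a1 are 6 of the 19938 genes measured in mouse colon, picked as genes of the epithelium with large rises in chronic colitis. Each gene was read from 1 transcript cluster of the array, the set of probes that carries that symbol alone, and a symbol with several clusters was read from the one that was brightest on average. The genes were chosen by measured values, the chronic colitis differences of all 6 and the untreated knockout levels of Plet1, and these are given as a description and were not tested. The acute phase came from other mice, and the DSS and genotype tests of the 6 genes were made there, while other genes were also tested in the chronic phase. Where KO and WT controls are set against each other, Plet1 is given without a test. Its acute DSS differences use those controls too and are a description, although the counts over all 6 genes include it.

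The animals were Timp1 knockout mice (KO, B6.129S4-Timp1tm1Pds/J, which carry a targeted allele of Timp1, an inhibitor of matrix metalloproteinases) and C57BL/6J wild-type mice (WT). Dextran sodium sulphate (DSS), a polysaccharide that injures the colonic epithelium when swallowed, was given in an acute or a chronic course, and total RNA of snap-frozen colon was read on Affymetrix gene arrays (Mouse Gene 1.0 ST), 1 array per mouse. The 8 groups were KO acute DSS (6 arrays), KO acute control (3), WT acute DSS (5), WT acute control (3), KO chronic DSS (5), KO chronic control (5), WT chronic DSS (5) and WT chronic control (5). Doses, durations, ages and sexes are not given in the labels used here.

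Values are log2 signals, so that 1 unit is a doubling, and each difference on that scale is followed by its standard error (SE) from a linear model over all genes (limma). Array medians lay between 7.67 and 7.76. Timp1 itself was lower in every KO acute DSS array (7.10 to 8.68) than in any WT acute DSS array (9.47 to 12.19). In the chronic phase the DSS ranges overlapped, 6.83 to 7.30 in KO and 7.20 to 9.27 in WT, and 4 of 5 KO arrays lay below the lowest WT array. The animal numbers in the titles fall into 4 series, which may be batches. WT acute mice and KO acute DSS replicates 1 to 3 make up series 1, and KO acute controls with KO acute DSS replicates 4 to 6 series 2. WT chronic DSS mice with WT chronic controls 1 to 3 make up series 3, and all KO chronic mice with WT chronic controls 4 and 5 series 4. Kdm5d, a Y-linked gene, was high in KO acute control replicate 2 and KO acute DSS replicate 4 and low in the other 35 arrays.

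The epithelium of the colon is a single layer of absorptive and secretory cells renewed from crypts, and DSS breaks it into ulcers that heal from the surviving crypts. During such repair, epithelial cells are known to express surface, barrier and transport genes that the resting colon uses little, some of them shared with skin, small intestine or fetal gut. Among the genes described here, Plet1 is a lipid-anchored surface protein known from epithelial progenitor cells, Sptssb and Abca12 act in sphingolipid synthesis and lipid transport, Dhrs9 in retinoid and steroid metabolism, Clca4b belongs to the calcium-activated chloride channel regulators, and Slc3a1 is the heavy chain of a cystine transporter.

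Because the arrays measured bulk colon tissue, fewer cells of a type and less RNA per cell cannot be told apart. The epithelial label was set against 12 general epithelial markers (Epcam, 3 keratins, Cldn7, Vil1 and the factors Cdx1 and Cdx2 among them). Their mean signal lay between 11.87 and 12.35 in 35 arrays, and at 11.38 and 10.55 in WT acute DSS replicates 1 and 3. In KO acute DSS 0 of 12 markers passed the test, and in WT acute DSS 9 of 12 fell (median difference -0.59). In chronic DSS 0 of 12 passed in KO and 1 of 12 in WT, the intestinal homeobox gene Cdx2 (1.62, limma's adjusted p = 0.00542), with the threshold at 0.05. Over the 37 arrays the members' deviations from their group means correlated with that of the marker mean at r = 0.29 (Clca4b), 0.39 (Plet1), 0.39 (Dhrs9), 0.41 (Abca12), 0.61 (Sptssb) and 0.71 (Slc3a1). The SD of the marker mean was 0.67 in WT acute DSS and 0.02 to 0.15 in the other groups. These values of r therefore rest largely on WT acute DSS, where replicates 1 and 3 were low, and are given as a description. The arrays cannot show which cells carried the transcripts.

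The stretches before the transcription starts are printed for 5 of the genes, with Sptssb as an example without a match. The Abca12 window, also without a match, was searched but is not printed. The stretches are the 250 bases upstream of each start, 5′ to 3′ on the strand of the gene, from RefSeq on GRCm38.p6, in which all 6 symbols were found. Capitals mark matches, on either strand, to the letters TGANTCA (the AP-1 motif), TATAAA (the TATA box) or TTTATG (bound by the intestinal CDX factors). Plet1 lies on the plus strand at chr9:50494275-50494524, Slc3a1 on the plus strand at chr17:85028097-85028346, Dhrs9 on the plus strand at chr2:69380212-69380461, Clca4b on the minus strand at chr3:144932530-144932779 and Sptssb on the minus strand at chr3:69859895-69860144.
Plet1: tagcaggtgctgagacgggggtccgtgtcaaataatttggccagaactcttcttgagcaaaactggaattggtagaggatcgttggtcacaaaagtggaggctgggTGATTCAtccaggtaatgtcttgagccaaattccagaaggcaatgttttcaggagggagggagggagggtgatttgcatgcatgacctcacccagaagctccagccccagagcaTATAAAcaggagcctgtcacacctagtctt
Slc3a1: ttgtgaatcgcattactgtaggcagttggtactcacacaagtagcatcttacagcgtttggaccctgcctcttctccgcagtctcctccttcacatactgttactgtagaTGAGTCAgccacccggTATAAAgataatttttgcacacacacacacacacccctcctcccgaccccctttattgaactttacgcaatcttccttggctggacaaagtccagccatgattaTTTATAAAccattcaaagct
Dhrs9: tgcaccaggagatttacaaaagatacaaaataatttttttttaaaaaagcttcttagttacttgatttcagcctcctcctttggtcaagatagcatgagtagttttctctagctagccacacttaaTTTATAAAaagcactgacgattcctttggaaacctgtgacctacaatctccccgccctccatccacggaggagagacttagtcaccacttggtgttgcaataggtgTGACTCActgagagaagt
Clca4b: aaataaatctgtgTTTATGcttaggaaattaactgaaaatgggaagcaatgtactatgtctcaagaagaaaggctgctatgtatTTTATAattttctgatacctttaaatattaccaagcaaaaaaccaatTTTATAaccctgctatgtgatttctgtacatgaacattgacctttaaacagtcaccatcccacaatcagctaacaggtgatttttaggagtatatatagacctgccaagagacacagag
Sptssb: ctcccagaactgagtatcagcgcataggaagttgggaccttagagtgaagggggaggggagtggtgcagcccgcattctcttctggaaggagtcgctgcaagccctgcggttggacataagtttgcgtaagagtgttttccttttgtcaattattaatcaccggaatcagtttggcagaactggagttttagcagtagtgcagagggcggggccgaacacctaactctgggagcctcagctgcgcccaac

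Plet1, Slc3a1 and Dhrs9 each held 1 AP-1 match, beginning 144, 140 and 18 bases before the start, and the Clca4b, Sptssb and Abca12 windows held none. Of 32851 mouse promoter windows of the same length, 6.75% held that motif. TATAAA occurred in Plet1 (30 bases before the start), Slc3a1, Dhrs9 and Clca4b, against 12.4% of all windows, with 2 overlapping matches on opposite strands in Dhrs9 and again in Slc3a1. TTTATG occurred in Clca4b alone, 237 bases before the start, against 10.8% of all windows. GGAATG (TEAD factors, 12.6% of windows), AACCNGTT (grainyhead, 1.79%) and TTCNNNGAA (STAT, 7.02%) occurred in none of the 6, and the Abca12 window held none of the 6 motifs searched. A match describes these letters in this window only.

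**Figure D1:**
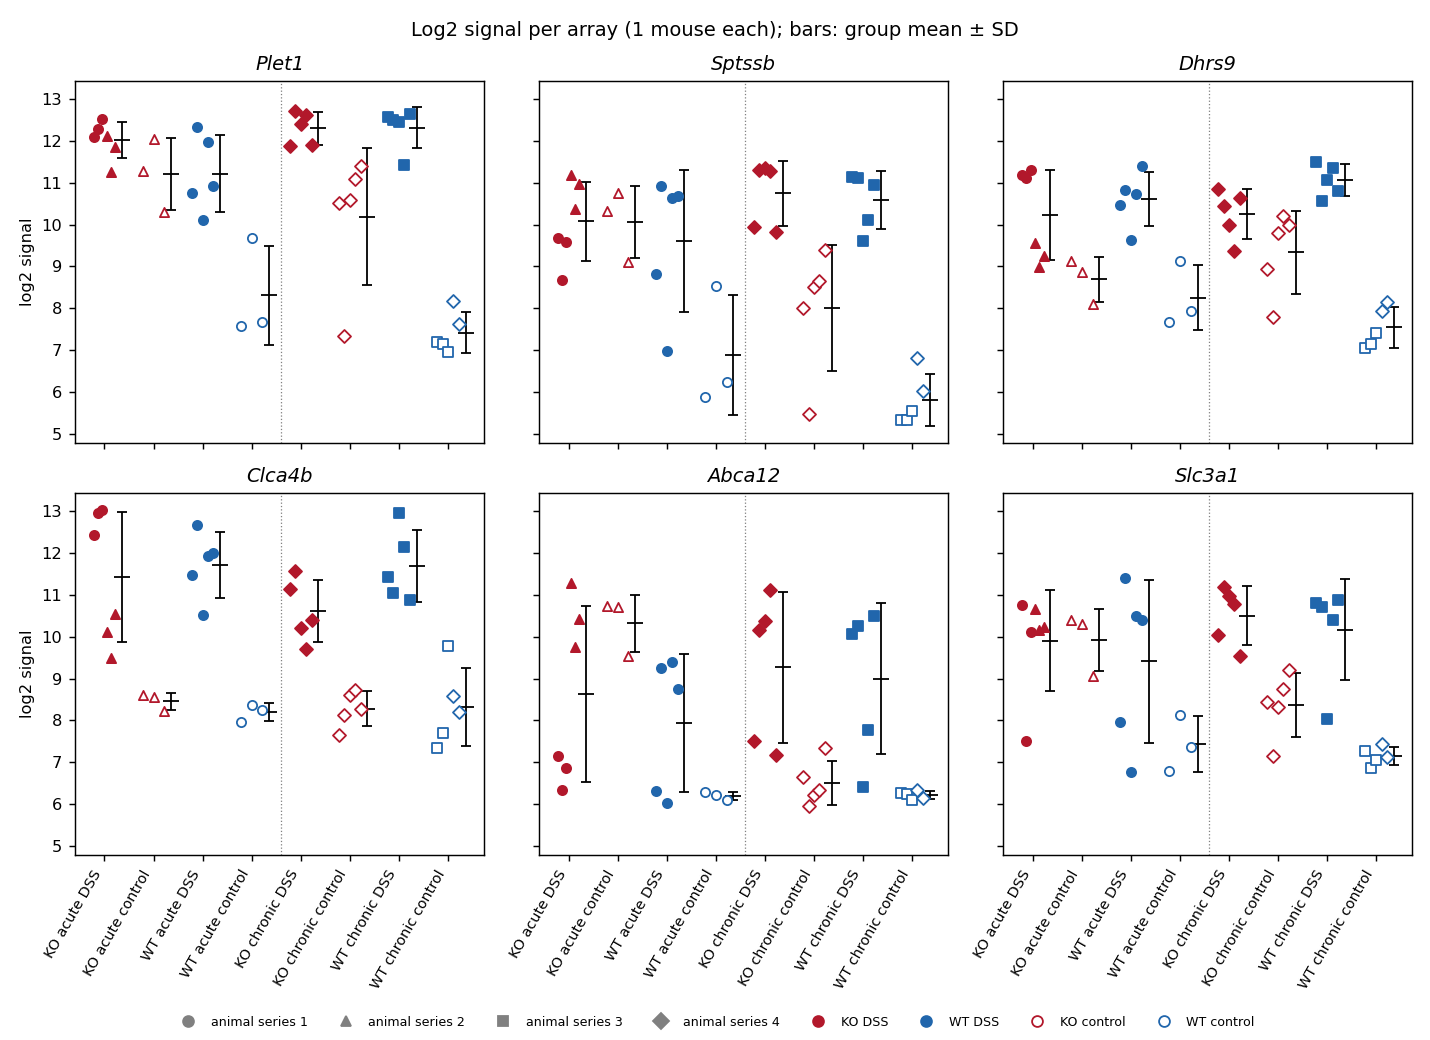
Log2 signal of the 6 genes in each of the 37 arrays, by group, with knockout arrays in red, wild-type arrays in blue, DSS arrays filled and controls open. Shapes show the 4 series of animal numbers and bars the group mean ± SD. Both WT control groups have the lowest means for every gene but Clca4b. The KO acute DSS arrays of Abca12 split into series 1 (6.32 to 7.15) and series 2 (9.75 to 11.28).

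Plet1 (transcript cluster 10585186) was high in all DSS groups and in untreated knockout colon, and low in untreated wild-type colon. In chronic KO mice the DSS arrays read 11.88, 12.73, 12.41, 12.62 and 11.92, against 10.51, 7.33, 10.60, 11.10 and 11.40 in the controls. In chronic WT mice the DSS arrays read 12.58, 12.50, 12.46, 11.44 and 12.64, against 7.19, 7.14, 6.95, 8.18 and 7.62 in the controls. All 5 DSS arrays lay above all controls in both genotypes, and KO chronic control replicate 2 was the only knockout control in the range of the WT controls. The differences that chose the gene were 2.12 ± 0.52 in KO and 4.91 ± 0.52 in WT.

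In the acute phase the Plet1 signal in KO DSS arrays ran from 11.25 over a median of 12.10 to 12.53, against 11.28, 12.05 and 10.31 in KO controls, so the groups overlapped. WT acute DSS arrays read 10.76, 12.35, 10.11, 11.98 and 10.92, against 7.58, 9.68 and 7.67 in WT controls, and did not overlap with them. The Plet1 difference was 0.81 ± 0.59 in KO acute DSS and 2.91 ± 0.60 in WT acute DSS (7.54-fold). Both differences use the control levels for which Plet1 was also chosen, so they are given as a description. In the order of the 8 group means, from WT chronic DSS (12.32 ± 0.50, SD) over KO chronic DSS (12.31 ± 0.39), KO acute DSS (12.03 ± 0.44), WT acute DSS (11.22 ± 0.92), KO acute control (11.21 ± 0.87) and KO chronic control (10.19 ± 1.64) to WT acute control (8.31 ± 1.18) and WT chronic control (7.42 ± 0.49), only the step from KO chronic control to WT acute control exceeded the larger SD of the neighbours.

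Sptssb (10498653) encodes a small subunit of serine palmitoyltransferase, the enzyme of the first step of sphingolipid synthesis. It read 9.95, 11.31, 11.36, 11.29 and 9.84 in KO chronic DSS, against 8.00, 5.47, 8.51, 8.66 and 9.40 in KO chronic controls. WT chronic DSS arrays read 11.15, 11.12, 9.62, 10.12 and 10.95, against 5.32, 5.33, 5.54, 6.80 and 6.01 in WT chronic controls. Neither genotype showed overlap, and KO chronic control replicate 2, the low Plet1 array, was again the lowest knockout array. The differences were 2.74 ± 0.67 in KO and 4.79 ± 0.67 in WT.

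Acute Sptssb values in KO DSS arrays ran from 8.68 over a median of 10.03 to 11.20, against 10.34, 10.75 and 9.11 in KO controls. In WT they were 8.82, 10.92, 6.98, 10.64 and 10.68 under DSS, against 5.87, 8.53 and 6.24 in controls. Only WT acute DSS replicate 3 fell within its controls, and the KO groups overlapped widely. Sptssb rose by 2.73 ± 0.78 in WT acute DSS (adjusted p = 0.00565) and differed by 0.01 ± 0.75 in KO acute DSS (adjusted p = 0.996). Its highest group mean was that of KO chronic DSS (10.75 ± 0.78, SD) and its lowest that of WT chronic controls (5.80 ± 0.63), and no step between neighbouring groups exceeded the larger SD.

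Abca12 (10355343), a transporter that loads glucosylceramides into the lamellar granules of skin keratinocytes, had the largest SD of the 6 genes in KO acute DSS (2.10), KO chronic DSS (1.80) and WT chronic DSS (1.81), and the smallest in WT acute (0.10) and WT chronic controls (0.09). KO chronic DSS arrays read 7.50, 10.17, 10.37, 11.12 and 7.18, against 6.64, 5.95, 6.22, 6.34 and 7.33 in KO chronic controls. WT chronic DSS arrays read 10.06, 10.26, 6.41, 7.77 and 10.49, against 6.26, 6.23, 6.09, 6.32 and 6.15 in WT chronic controls. In each genotype 3 DSS arrays were above 10 and the others much lower, with KO replicate 5 inside its controls. The differences were 2.77 ± 0.87 in KO and 2.79 ± 0.87 in WT.

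In acute KO mice, Abca12 read 7.15, 6.32 and 6.85 in DSS replicates 1 to 3 and 11.28, 9.75 and 10.42 in DSS replicates 4 to 6, against 10.73, 10.70 and 9.53 in the controls. WT acute DSS arrays read 6.30, 9.26, 6.02, 9.39 and 8.75, against 6.29, 6.21 and 6.09 in controls. The 3 low KO arrays were those of series 1, and WT replicates 1 and 3, low here as well, were the arrays with the lowest epithelial marker means. Neither difference passed, at -1.70 ± 0.98 in KO (adjusted p = 0.400) and 1.75 ± 1.01 in WT (adjusted p = 0.166). The highest group mean was that of KO acute controls (10.32 ± 0.69, SD), and no neighbouring groups were further apart than the larger SD.

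Dhrs9 (10472538) is a short-chain dehydrogenase that oxidizes retinol and hydroxysteroids. KO chronic DSS arrays read 10.86, 10.44, 9.99, 9.37 and 10.63, against 8.94, 7.78, 9.80, 10.20 and 9.99 in KO chronic controls. WT chronic DSS arrays read 11.49, 10.57, 11.08, 11.36 and 10.80, against 7.04, 7.15, 7.42, 7.93 and 8.16 in WT chronic controls. The WT groups were apart by more than 2 units, whereas only 3 of 5 KO DSS arrays exceeded all their controls. The differences were 0.92 ± 0.45 in KO, the smallest of the 6 genes there, and 3.52 ± 0.45 in WT.

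KO acute DSS arrays read 11.19, 11.11, 11.30, 9.57, 8.98 and 9.24 for Dhrs9, against 9.13, 8.86 and 8.10 in KO acute controls. WT acute DSS arrays read 10.46, 10.83, 9.63, 10.74 and 11.40, against 7.68, 9.14 and 7.94 in WT acute controls. In KO the first 3 values belong to series 1 and the last 3, near the controls, to series 2. Dhrs9 rose by 2.36 ± 0.52 in WT acute DSS (adjusted p = 0.000544), and its KO difference of 1.54 ± 0.50 did not pass (adjusted p = 0.115). Without KO acute DSS replicate 5 the KO difference was 1.79 (adjusted p = 0.0419). Its group means ran from 11.06 ± 0.38 (SD) in WT chronic DSS to 7.54 ± 0.49 in WT chronic controls with no step beyond the larger SD.

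Clca4b (10502613), of a family of secreted and membrane proteins that raise calcium-activated chloride currents, was the gene of the 6 with the closest means in the 4 control groups (8.46 ± 0.21 in KO acute, 8.19 ± 0.22 in WT acute, 8.28 ± 0.42 in KO chronic and 8.32 ± 0.93 in WT chronic controls, SD). KO chronic DSS arrays read 11.15, 11.58, 10.21, 9.72 and 10.41, against 7.66, 8.14, 8.60, 8.72 and 8.28 in KO chronic controls. WT chronic DSS arrays read 11.44, 11.05, 12.96, 12.14 and 10.88, against 7.35, 7.71, 9.77, 8.57 and 8.20 in WT chronic controls. The groups did not overlap in either genotype. The differences were 2.33 ± 0.55 in KO and 3.38 ± 0.55 in WT.

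In the acute phase Clca4b was the gene of the 6 that passed in both genotypes, in KO with a call that rests on the animal series and on every control. KO acute DSS arrays read 12.43, 12.95, 13.04, 10.12, 9.49 and 10.54, against 8.61, 8.55 and 8.22 in KO acute controls. WT acute DSS arrays read 11.48, 12.67, 10.52, 11.93 and 12.01, against 7.95, 8.37 and 8.26 in WT acute controls. Every DSS array exceeded every control of its genotype, and KO replicates 4 to 6, of series 2, were below replicates 1 to 3. The difference was 2.97 ± 0.61 in KO (adjusted p = 0.0125, but 1.60 and 0.186 with animal series as a covariate, and 0.0730 to 0.0836 without any 1 control) and 3.53 ± 0.64 in WT (adjusted p = 5.64e-05). Between KO chronic DSS (10.61 ± 0.75, SD), the lowest DSS group, and KO acute controls (8.46 ± 0.21), the highest control group, the step exceeded the larger SD, and no other step did.

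A neighbouring cluster that carries the symbols of both Clca4b and its paralog Clca4a, and the cluster of Clca4a alone, moved less. With all clusters tested separately, the shared cluster differed by 0.16 ± 0.34 in KO acute DSS (adjusted p = 0.888) and rose by 0.96 ± 0.36 in WT acute DSS (adjusted p = 0.0380). Clca4a differed by -0.23 ± 0.35 in KO acute DSS and by 0.49 ± 0.36 in WT acute DSS, where neither passed (adjusted p = 0.820 and 0.319). In chronic DSS, Clca4a rose by 1.43 ± 0.31 in WT (adjusted p = 0.00236) and differed by 0.45 ± 0.31 in KO (adjusted p = 0.391). The probes of near-identical family members can share signal, so the split between Clca4a and Clca4b is uncertain.

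Slc3a1 (10447264) forms with Slc7a9 the transporter for cystine and dibasic amino acids of kidney and small intestine. KO chronic DSS arrays read 10.04, 11.20, 10.98, 10.78 and 9.54, against 8.44, 7.15, 8.32, 8.74 and 9.20 in KO chronic controls. WT chronic DSS arrays read 10.80, 10.72, 8.02, 10.40 and 10.89, against 7.26, 6.87, 7.05, 7.43 and 7.11 in WT chronic controls. All DSS arrays exceeded the controls of their genotype, and the lowest DSS array came close to the highest control in both (KO replicate 5 and WT replicate 3). The differences were 2.14 ± 0.66 in KO and 3.02 ± 0.66 in WT.

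Slc3a1 values in KO acute DSS arrays ran from 7.52 over a median of 10.21 to 10.75, against 10.40, 10.29 and 9.06 in KO acute controls. WT acute DSS arrays read 7.97, 11.41, 6.77, 10.50 and 10.41, against 6.80, 8.13 and 7.37 in WT acute controls. WT replicate 1 lay within its controls, replicate 3 just below them and the other 3 above them. Slc3a1 rose by 1.98 ± 0.76 in WT acute DSS (adjusted p = 0.0362) and differed by -0.01 ± 0.74 in KO acute DSS (adjusted p = 0.997). The WT call was lost without WT acute control replicate 1 (adjusted p = 0.130) or 3 (0.0970), or without WT acute DSS replicate 2 (0.114), 4 (0.0805) or 5 (0.0801). The largest group mean was that of KO chronic DSS (10.51 ± 0.69, SD), and only the step from KO chronic control (8.37 ± 0.76) to WT acute control (7.43 ± 0.67) exceeded the larger SD. Slc7a9, its light chain, did not pass in any of the 4 DSS comparisons, with differences of 0.76 in KO acute, 0.06 in WT acute, 0.51 in KO chronic and 0.21 in WT chronic DSS.

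**Figure D2:**
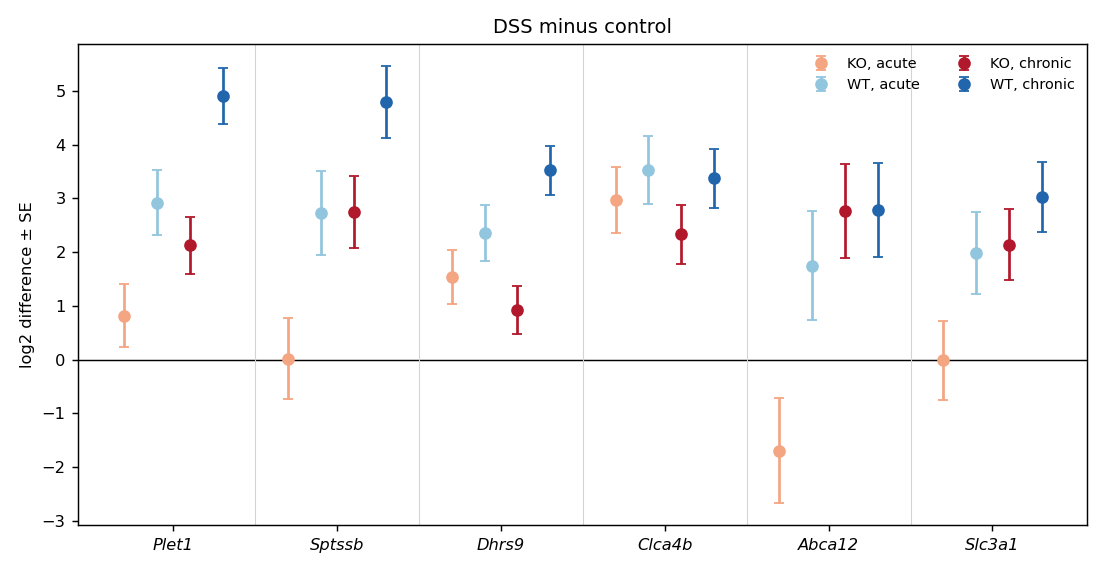
Log2 difference of DSS minus control for the 6 genes, with SE from limma's fit, for KO acute, WT acute, KO chronic and WT chronic mice from left to right. In acute DSS Clca4b was higher in both genotypes (2.97 in KO, 3.53 in WT), while Sptssb, Abca12 and Slc3a1 were at or below 0.01 in KO and at 1.75 to 2.73 in WT.

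Set side by side, 1 of 6 genes passed in KO acute DSS (Clca4b), where 0.266% of all 19938 genes passed as higher, and 5 of 6 passed in WT acute DSS, all higher, where 19.4% of all genes did. All arrays of DSS lay above all controls for 1 of 6 genes in KO (2.79% of all genes) and 3 of 6 in WT (17.7% of all genes). The counts and medians given here include Plet1, whose control levels were also used to choose it, so its part in them is a description. The median difference was 0.41 in KO acute and 2.55 in WT acute DSS, against medians over all genes of 0.0042 and 0.0062. Without WT acute DSS replicates 1 and 3, the arrays of low epithelial signal, 6 of 6 genes passed as higher in WT acute DSS, where 13.1% of all genes did, and Abca12 was 2.94 ± 1.05 (adjusted p = 0.0336). This setting was chosen after seeing the data. Replicates 1 and 3 were also the lowest arrays of that group for each of the 6 genes (6.30 and 6.02 for Abca12). Leaving them out therefore raises each difference, and nothing is read from this count. Restricting the fit to the arrays of the 2 groups left 0 of 6 in KO (Clca4b adjusted p = 0.241), where limma called 0 of all 19938 genes (2253 had an unadjusted p under 0.05), and 3 of 6 in WT, where 12.9% of all genes passed as higher and Sptssb (0.0724) and Slc3a1 (0.168) did not.

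The KO acute call depended on the animal series. All KO acute controls were of series 2, and within that series the differences between the 3 DSS and the 3 control arrays were 1.60 for Clca4b, 0.78 for Sptssb, 0.57 for Dhrs9, 0.53 for Plet1, 0.44 for Slc3a1 and 0.16 for Abca12. With series as a covariate 0 of 6 passed (Clca4b adjusted p = 0.186), where 0.0150% of all genes passed. Without KO acute control replicate 1, 2 or 3 the adjusted p of Clca4b was 0.0730, 0.0836 and 0.0760. Among KO acute DSS arrays, those of series 1 averaged 12.81 ± 0.33 for Clca4b and 11.20 ± 0.09 for Dhrs9 (SD, n = 3), and those of series 2 averaged 10.05 ± 0.53 and 9.26 ± 0.29. Sptssb and Abca12 stood the other way round, with means of 9.31 ± 0.55 and 6.77 ± 0.42 in series 1 and of 10.85 ± 0.42 and 10.48 ± 0.77 in series 2. What set the series apart was not tested. One mouse of each acute KO group had Y-linked signal, both in series 2.

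In the chronic contrasts, which chose the genes, the 6 ranked 4th to 74th from the highest of 19938 genes in KO and 2nd to 22nd in WT. The DSS arrays lay above all controls for 4 of 6 genes in KO (2.82% of all genes) and 6 of 6 in WT (6.23%), and nothing is read from these counts. The median difference was 2.23 in KO and 3.45 in WT. Among the genes of the epithelial and pathway lists counted below, the largest chronic rise outside the choice was that of Retnlb, a goblet cell peptide. It rose by 4.06 in KO and 4.48 in WT, above all 6 genes in KO and 4 of 6 in WT. Alpi, an intestinal alkaline phosphatase, was next among these list genes with 1.54 in KO and 2.55 in WT. The members with the smallest rise were Dhrs9 in KO (0.92) and Abca12 in WT (2.79). In KO, Dhrs9 lay below Retnlb and Alpi, and also below the list genes Tmigd1 (1.46), Sprr1a (1.33), Slc10a2 (1.32) and Fabp2 (1.00).

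Knockout and wild-type mice were compared next. Under acute DSS 0 of 6 genes passed in limma's fit, where 30.9% of all genes did. The differences (KO minus WT) were 0.80 ± 0.50 for Plet1, 0.68 ± 0.84 for Abca12, 0.50 ± 0.63 for Slc3a1, 0.47 ± 0.65 for Sptssb, -0.29 ± 0.53 for Clca4b and -0.38 ± 0.43 for Dhrs9. The adjusted p values ran from 0.234 to 0.715. WT acute and KO acute DSS arrays overlapped for all 6 genes, and nothing is read from this count. In the series the genotypes share, series 1, the differences were 1.09 for Clca4b, 1.08 for Plet1, 0.59 for Dhrs9, 0.04 for Slc3a1, -0.30 for Sptssb and -1.17 for Abca12, so that 4 of 6 changed sign.

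Untreated acute KO mice had the higher mean for all 6 genes, among them Plet1, which was chosen for this, and nothing is read from this count. Of the 5 genes other than Plet1, the 3 KO controls lay above the 3 WT controls for Sptssb, Abca12 and Slc3a1 (3 of 5, against 10.8% of all genes). The difference was 4.13 ± 1.13 for Abca12, 3.19 ± 0.87 for Sptssb, 2.49 ± 0.85 for Slc3a1, 0.45 ± 0.58 for Dhrs9 and 0.27 ± 0.71 for Clca4b. Of these 5 genes 0 passed (limma's adjusted p = 0.0638, 0.0638, 0.157, 0.826 and 0.932), where 0.341% of all genes passed as higher. For Plet1, chosen also for its level in untreated knockout, the difference was 2.90 ± 0.68. Without WT acute control replicate 2, Sptssb passed (4.01, adjusted p = 0.0485). The KO controls are all of series 2 and the WT controls all of series 1, and genotype and series cannot be told apart between these 6 arrays. A fit with series as a covariate, which links them through the KO acute DSS mice of both series, gave 0.42 for Abca12, 1.65 for Sptssb, 1.58 for Slc3a1, 2.38 for Dhrs9 and 3.02 for Clca4b, of which Clca4b passed (adjusted p = 0.0330), where 1.81% of all genes did. Restricted to these 6 arrays, Abca12, Sptssb and Slc3a1 passed (adjusted p = 0.00063, 0.0304 and 0.0136), where 4.83% of all genes did.

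In chronic controls the knockouts were again higher for Plet1 (2.77 ± 0.52), Sptssb (2.21 ± 0.67), Dhrs9 (1.80 ± 0.45) and Slc3a1 (1.23 ± 0.66), with 4 of 5 KO arrays above all 5 WT arrays for each. Abca12 (0.29 ± 0.87) and Clca4b (-0.04 ± 0.55) were close to the WT level. KO chronic control replicate 2 was the array that fell among the WT controls in all 4 cases. Within series 4, which holds all KO controls and WT controls 4 and 5, the differences were 2.28 for Plet1, 1.60 for Sptssb, 1.29 for Dhrs9 and 1.10 for Slc3a1. Under chronic DSS the differences between KO and WT were -0.01 ± 0.52 for Plet1, 0.16 ± 0.67 for Sptssb, 0.34 ± 0.66 for Slc3a1, 0.27 ± 0.87 for Abca12, -0.80 ± 0.45 for Dhrs9 and -1.08 ± 0.55 for Clca4b. All KO chronic DSS arrays are of series 4 and all WT chronic DSS arrays of series 3, so that genotype and series cannot be told apart between these arrays. A fit with series as a covariate, linked through the WT chronic controls of both series, gave -0.82 ± 0.92 for Plet1, -0.85 ± 1.14 for Sptssb, 0.13 ± 1.17 for Slc3a1, 0.23 ± 1.29 for Abca12, -1.65 ± 0.63 for Dhrs9 and -1.19 ± 0.73 for Clca4b.

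The acute interaction, the DSS difference in KO minus that in WT, had a negative value for all 6 genes, and nothing is read from this count. It contains the difference between KO and WT controls that Plet1 was also chosen for, so Plet1 (-2.10 ± 0.84) was not tested, and of the other 5 genes 0 passed, where 12.3% of all genes did. It was -3.44 ± 1.40 for Abca12 (adjusted p = 0.0996), -2.72 ± 1.08 for Sptssb (0.0931), -1.99 ± 1.06 for Slc3a1 (0.216), -0.83 ± 0.72 for Dhrs9 (0.480) and -0.56 ± 0.88 for Clca4b (0.721). With animal series as a covariate the order of the genes changed, to -1.95 for Sptssb, -1.94 for Clca4b, -1.79 for Dhrs9, -1.59 for Abca12 and -1.54 for Slc3a1, and 0 of 5 passed, where 6.56% of all genes did. Single arrays decided whether some passed: Sptssb did without WT acute DSS replicate 3 (-3.37, 0.0283) and Abca12 without KO acute DSS replicate 4 (-3.97, 0.0489). With the epithelial marker mean as a covariate 3 of 5 passed, at -4.52 for Abca12, -3.95 for Sptssb and -3.38 for Slc3a1, where 7.57% of all genes did. A difference in the acute DSS effect between the genotypes is therefore not shown for any of these 5 without such changes. The chronic interaction, given as a description, was -2.78 ± 0.74 for Plet1, -2.60 ± 0.64 for Dhrs9, -2.05 ± 0.95 for Sptssb, -1.05 ± 0.78 for Clca4b, -0.89 ± 0.93 for Slc3a1 and -0.01 ± 1.23 for Abca12.

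**Figure D3:**
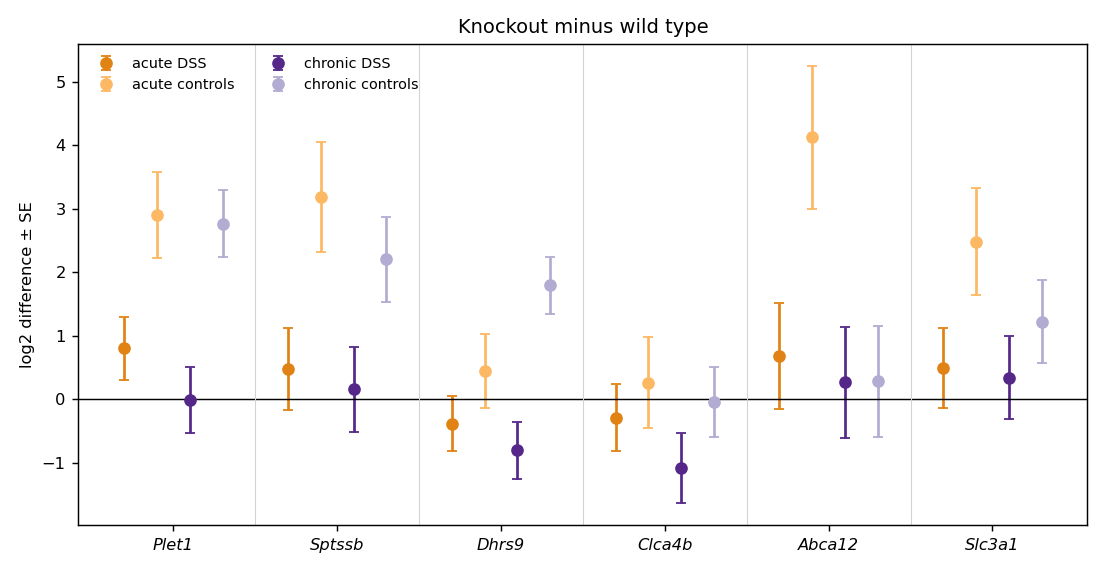
Log2 difference of KO minus WT for the 6 genes, with SE from limma's fit, under acute DSS, in acute controls, under chronic DSS and in chronic controls from left to right. Plet1, Sptssb and Slc3a1 stood higher in KO controls of both phases (2.90 and 2.77 for Plet1, 3.19 and 2.21 for Sptssb, 2.49 and 1.23 for Slc3a1). Dhrs9 differed by 0.45 in acute and 1.80 in chronic controls. Abca12 stood higher in acute controls alone (4.13), and Clca4b in neither (0.27 and -0.04). In acute controls genotype and series cannot be told apart. With series as a covariate the acute control differences were 0.42 for Abca12 and 3.02 for Clca4b.

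How the genes moved together from mouse to mouse was read from deviations from the group mean, over 15 pairs of genes in DSS and in control arrays, each with and without the series mean removed (60 correlations, permutation tests with 100000 resamples, two-sided, adjusted together by Benjamini-Hochberg). The deviations of 1 group share its mean, and all genes of an array share its RNA. Among the 21 DSS arrays, Sptssb followed Slc3a1 (r = 0.89, permutation adjusted p = 0.00036, rho = 0.88, permutation adjusted p = 0.0012) and Abca12 (r = 0.88, permutation adjusted p = 0.0003, rho = 0.81, permutation adjusted p = 0.0006). Without the 2 arrays farthest from the median of Sptssb the values were r = 0.81 and 0.93, and with the series mean removed 0.90 and 0.86. Abca12 and Slc3a1 correlated at r = 0.74 (permutation adjusted p = 0.000943) and rho = 0.69 (permutation adjusted p = 0.00443), at 0.66 without the 2 farthest arrays and at 0.79 within series. Plet1 correlated with Sptssb at r = 0.55 (permutation adjusted p = 0.104), and within series at 0.77 (permutation adjusted p = 0.00867). With Abca12 it gave r = 0.38 (permutation adjusted p = 0.174), and 0.70 within series (permutation adjusted p = 0.00867). With Slc3a1, Dhrs9 and Clca4b r was 0.50, 0.30 and 0.43, and 0.59, 0.13 and 0.35 within series, and did not pass. Within series rho of Plet1 and Slc3a1 was 0.62 (permutation adjusted p = 0.0246).

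Dhrs9 and Clca4b formed another pair among the DSS arrays, with r = 0.86 (permutation adjusted p = 0.002) and rho = 0.84 (permutation adjusted p = 0.00443), 0.82 without the 2 farthest arrays and 0.66 within series. Between the pairs there was little relation or an opposite one. Clca4b and Abca12 correlated at r = -0.54 (permutation adjusted p = 0.0761) and rho = -0.61 (permutation adjusted p = 0.032), but at r = -0.17 within series (permutation adjusted p = 0.623), so this relation did not hold once the series means were removed. Clca4b and Sptssb correlated at r = -0.18 (permutation adjusted p = 0.536) and rho = -0.25 (permutation adjusted p = 0.393). Single mice stood either way. WT chronic DSS replicate 3 had the highest Clca4b of its group (12.96) and the lowest Abca12 (6.41), Sptssb (9.62) and Slc3a1 (8.02). WT acute DSS replicate 2 had the highest Clca4b (12.67), Sptssb (10.92) and Slc3a1 (11.41) of its group, with Abca12 at 9.26.

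**Figure D4:**
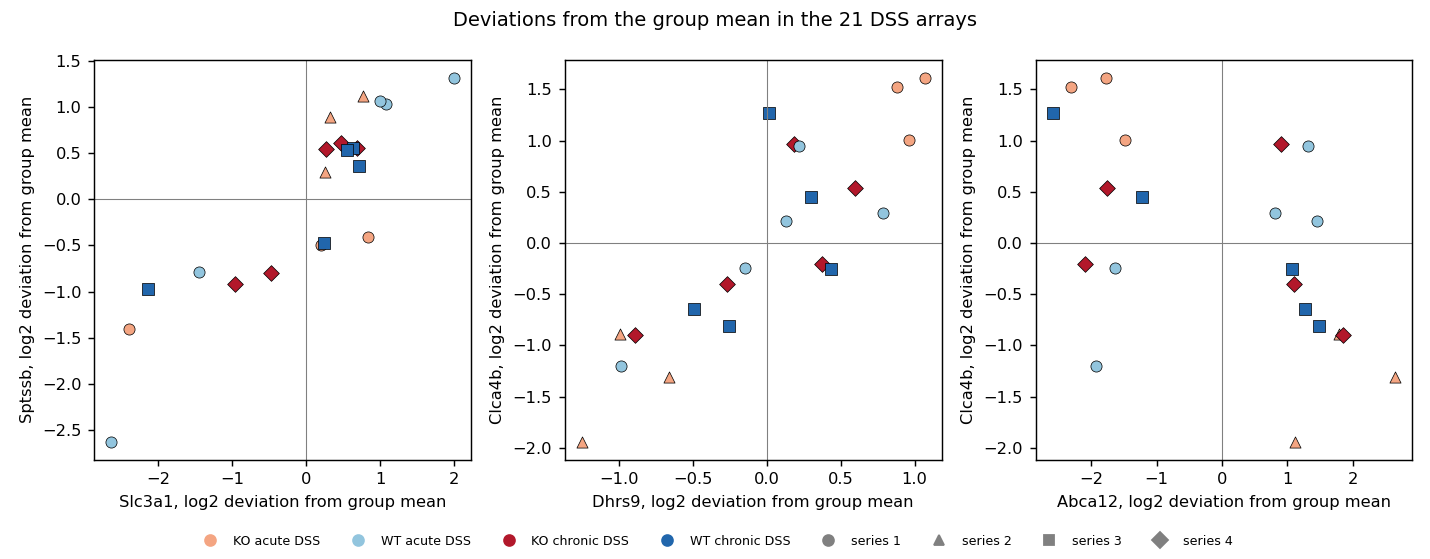
Deviation from the group mean in the 21 DSS arrays (log2 units) for Sptssb against Slc3a1, Clca4b against Dhrs9 and Clca4b against Abca12. Colours show the group and shapes the series. The first 2 panels run upwards (r = 0.89 and 0.86), and in the third the KO acute DSS arrays of series 1 and series 2 stand at opposite corners.

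In the 16 control arrays Sptssb again followed Slc3a1 (r = 0.92, permutation adjusted p = 0.00172, rho = 0.88, permutation adjusted p = 0.00443). Abca12 and Slc3a1 correlated at r = 0.76 (permutation adjusted p = 0.0222) and rho = 0.65 (permutation adjusted p = 0.0553). Dhrs9 and Clca4b correlated at r = 0.38 (permutation adjusted p = 0.175) and rho = 0.66 (permutation adjusted p = 0.0246). Plet1 followed Sptssb (r = 0.98, permutation adjusted p = 0.0007, rho = 0.96, permutation adjusted p = 0.0012), Slc3a1 (r = 0.91, permutation adjusted p = 0.00185, rho = 0.89, permutation adjusted p = 0.00189) and Dhrs9 (r = 0.90, permutation adjusted p = 0.00336, rho = 0.85, permutation adjusted p = 0.0046). Sptssb and Dhrs9 correlated at r = 0.93 (permutation adjusted p = 0.00185) and rho = 0.88 (permutation adjusted p = 0.00352). In DSS arrays the same pair gave r = -0.13 (permutation adjusted p = 0.68), and 0.33 within series (permutation adjusted p = 0.412). Without the 2 control arrays farthest from the median of the first gene of each pair, the values of r in controls for the pairs of Plet1 with Sptssb, Slc3a1 and Dhrs9 and of Sptssb with Dhrs9 were 0.96, 0.84, 0.80 and 0.86, and within series 0.98, 0.91, 0.90 and 0.92. Clca4b showed no such relation with Plet1 in the controls (r = 0.15, permutation adjusted p = 0.575, rho = 0.43, permutation adjusted p = 0.161). WT acute control replicate 2 and KO chronic control replicate 2 stood at the ends of this range, the first high within its group for Plet1 (9.68), Sptssb (8.53), Dhrs9 (9.14) and Slc3a1 (8.13), the second low (7.33, 5.47, 7.78 and 7.15). The difference between DSS and control arrays was not tested.

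Among all other genes, likeness was measured as Pearson's r of the log2 signal over the 37 arrays, which share groups and series, and is given as a description. Sptssb was most like Car12, a carbonic anhydrase (0.96), Chn2 (0.95) and Plet1 (0.94). Plet1 was most like Sptssb (0.94), the integrin Itga2 (0.92) and Tmsb10 (0.91). For Slc3a1 the closest were Chn2 (0.94), Alpi (0.94) and Sptssb (0.93), and for Abca12 Slc35d1 (0.95) and the cytochrome P450 genes Cyp2c66 (0.94) and Cyp2c65 (0.94). Clca4b was closest to Ripk3, a kinase of necroptosis (0.92), the heparan sulphatase Sulf2 (0.92) and Trim15 (0.89), and Dhrs9 to Serp1, an endoplasmic reticulum stress protein (0.90), Ddah1 (0.90) and Cwh43 (0.89).

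With the group means removed the order of likeness changed. Plet1 came closest to Isx, an intestine-specific homeobox gene (0.81), Itga2 (0.81) and B4galnt1 (0.79), and Sptssb to Car12 (0.94), Isx (0.93) and Chn2 (0.92). Abca12 came closest to Aldh1a1, a retinaldehyde dehydrogenase (0.95), Acsf2 (0.95) and Hkdc1 (0.94), and Slc3a1 to Alpi (0.93), Hsd17b13 (0.91) and Clstn1 (0.90). Dhrs9 stood nearest to Clptm1l (0.86), Dkkl1 (0.82) and Ostc, a subunit of the oligosaccharyl transferase (0.81), and Clca4b to Trim40 (0.82), Trim15 (0.80) and Ripk3 (0.80).

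The counts of list genes below stand against 0.266% of all genes higher and 0.853% lower in KO acute DSS, 19.4% and 21.8% in WT acute DSS, 2.47% and 5.47% in KO chronic DSS and 5.79% and 8.58% in WT chronic DSS. Of 30 other measured genes of sphingolipid synthesis, 0 rose and 1 fell in KO acute DSS, 5 rose and 11 fell in WT acute DSS, 1 rose and 2 fell in KO chronic DSS and 3 rose and 5 fell in WT chronic DSS. Of the large subunits of the enzyme that Sptssb belongs to, Sptlc1 fell by 0.48 in WT acute DSS and differed by -0.03 in both chronic comparisons, and Sptlc2 and Sptlc3 did not pass in any of the 4 comparisons (-0.32 to 0.11). Sptssa, the other small subunit, fell by 0.47 in WT acute DSS and rose by 0.47 in KO chronic DSS. The ceramide synthase Cers4 fell by 0.50 in KO chronic and 0.74 in WT chronic DSS.

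Of 38 retinoid genes other than Dhrs9, 0 passed in KO acute DSS, 8 rose and 13 fell in WT acute DSS, 0 rose and 1 fell in KO chronic DSS, and 2 rose and 5 fell in WT chronic DSS. The retinaldehyde dehydrogenase Aldh1a3 rose by 1.76 ± 0.36 in WT acute DSS (adjusted p = 0.00028) and by 1.16 ± 0.31 in WT chronic DSS (adjusted p = 0.0115), against 0.22 and 0.18 in KO acute and KO chronic DSS, where it did not pass. Rdh10, a retinol dehydrogenase like Dhrs9, rose by 1.15 ± 0.19 in WT acute and 1.05 ± 0.17 in WT chronic DSS. Rdh16, another, fell by 1.60 ± 0.47 in WT acute DSS (adjusted p = 0.00731) and differed by -1.17 ± 0.41 in WT chronic DSS, where it did not pass (adjusted p = 0.0519). Of 21 other CLCA and chloride secretion genes 3 rose and 10 fell in WT acute DSS, among them the chloride channel gene Best2 (-2.43), and 1 fell in KO acute DSS (Ano1, -0.87). In chronic DSS 0 of these 21 rose and 1 fell in KO, and 2 rose and 3 fell in WT. Of 27 other amino acid transport genes 0 passed in KO acute DSS and 6 rose and 7 fell in WT acute DSS, where the cystine exchanger Slc7a11 rose by 2.36 ± 0.49 and the peptide transporter Slc15a1 fell by 2.92. In chronic DSS 0 of these 27 rose and 2 fell in KO, and 6 rose and 7 fell in WT. None of 28 other ABCA and skin barrier lipid genes passed in KO acute or KO chronic DSS, 5 rose and 3 fell in WT acute DSS, and 1 rose and 3 fell in WT chronic DSS.

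Genes of squamous, wound and small intestinal epithelium were counted because the genes described here are known from those tissues. Of 29 squamous genes, 0 passed in KO acute DSS, 4 rose and 6 fell in WT acute DSS, 1 rose in KO chronic DSS and 5 rose in WT chronic DSS. Sprr1a, a cornified envelope protein, rose by 1.33 ± 0.29 in KO chronic and 2.24 ± 0.29 in WT chronic DSS, whereas the basal keratin Krt5 did not pass in any DSS comparison (0.02 to 0.18). Of 24 wound and fetal-like genes, 1 rose in KO acute, 7 rose and 3 fell in WT acute, 2 rose and 1 fell in KO chronic, and 9 rose and 1 fell in WT chronic DSS. Of 22 small intestinal enterocyte genes, 0 passed in either KO comparison, 4 rose and 3 fell in WT acute DSS, and 2 rose and 2 fell in WT chronic DSS. Those that rose in WT chronic DSS were Alpi (2.55) and Fabp2, a fatty acid binding protein (2.36).

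Other cell types moved with the same comparisons. The mean of 9 neutrophil markers ran from 6.94 to 9.41 in KO acute DSS, against 6.77 to 6.87 in KO acute controls, and from 8.83 to 11.16 in WT acute DSS, against 6.83 to 6.87 in WT acute controls. In chronic DSS it ran from 6.45 to 7.80 in KO and from 6.96 to 9.07 in WT, against 6.86 to 7.05 in KO and 6.91 to 7.04 in WT controls. Of the 9 markers 1 rose in KO acute, 8 in WT acute, 0 in KO chronic and 6 in WT chronic DSS. Mature colonocyte genes fell in 15 of 24 cases in WT acute DSS and in 1 of 24 in KO acute DSS, and of 10 fibroblast genes 8 rose in WT acute DSS and 0 in KO acute DSS. The mean of 14 dendritic cell genes ran from 7.56 to 8.26 over all arrays. Of these 14 genes 1 rose in KO acute, 3 rose and 2 fell in WT acute, 0 passed in KO chronic and 3 rose in WT chronic DSS. The part of these cells in the values of the 6 genes was not tested.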

How the data were processed

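The 37 arrays (Affymetrix Mouse Gene 1.0 ST) measured RNA of mouse colon, and the deposited values were made with RMA, per the submitters' processing notes (its version is not given in the sources used here). The deposited values run from 3.03 to 14.96 and were taken as log2 signals, the scale that RMA gives. Of 35511 transcript clusters 21789 had 1 symbol in the platform annotation, 1621 several and 12101 none listed, and the brightest cluster of each symbol gave 19938 genes. No filter on dim genes was applied. limma 3.58.1 (R 4.3.3) fitted 1 mean per group over all 37 arrays, and p values were adjusted by Benjamini-Hochberg over 19938 genes within each of 10 comparisons, with a threshold of 0.05. The procedure was tested on simulated data. The members, and the 16 gene lists (325 of 344 symbols measured), were chosen with earlier results of these data known. Named list genes are the 3 of each list with the largest absolute difference in WT chronic DSS, direct partners of the 6 genes, defining markers and the 3 genes most like each, and Timp1 and Kdm5d served as checks. Plet1 was left out of the counts of passing genes between KO and WT controls and in the interaction, which use values it was chosen by. It was kept in the acute DSS counts, which use its control levels too. Replicates are different mice, and no array was left out. The number of arrays limits the precision. Alternatives were another prior, a filter on dim genes, single clusters, cyclic loess, array weights, covariates, fewer groups and leaving out each array.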

Additional observations from a re-analysis of the deposited data

Results flagged for a closer look

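Single arrays far from the rest of their group were looked for in 36 combinations of gene and group, of which chance alone is expected to flag about 1 in 20, and 4 stood apart. Plet1 read 11.44 in WT chronic DSS replicate 4, against 12.46 to 12.64 in the others of that group. Plet1 read 7.33 in KO chronic control replicate 2, against 10.51 to 11.40 in the other 4. Slc3a1 read 7.52 in KO acute DSS replicate 2, against 10.11 to 10.75 in the others. Slc3a1 read 8.02 in WT chronic DSS replicate 3, against 10.40 to 10.89 in the others.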

How the results depend on the processing

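No paired analysis was possible because each animal number occurs once. The chronic medians kept their direction under all 19 alternatives (KO 1.97 to 2.40, WT 3.27 to 3.64), and 0 of 6 genes passed between KO and WT under acute DSS in all 22. The count in KO acute DSS (1) was 3 with array weights (2 higher and Abca12 lower, -2.65, where 16.3% of all genes passed). It was 0 with series (0.0150%), 0 with only the groups compared (0 of all genes) and 0 to 2 without single arrays (0.0752% to 3.16%). The count in WT acute DSS (5, Plet1 among them) was 6 with array weights, where 23.1% of all genes passed as higher. It was also 6 with the epithelial mean (13.0%) or without the 2 arrays of lowest epithelial signal (13.1%). It was 3 with only the groups compared (12.9%) and 4 to 5 without single arrays (12.9% to 19.6%). The count between acute controls (0 of the 5 genes other than Plet1) was 3 with array weights (15.3% of all genes), the epithelial mean (2.08%) or only the groups compared (4.83%). It was 1 with series (1.81%) and 0 to 1 without single arrays (0.115% to 0.667%). The count in the acute interaction (0 of the same 5) was 3 with array weights (25.1%), the epithelial mean (7.57%) or without the 2 arrays of lowest epithelial signal (5.81%). It was 0 to 1 without single arrays (6.30% to 20.0%). The settings without the Y-linked or low epithelial arrays were chosen after seeing the data. Signs turned for Slc3a1 in KO acute DSS (0.0099 with cyclic loess, 0.44 with series or series 2 alone, 0.12 with sex, 0.30 with the epithelial mean, 0.0264 without the Y-linked arrays, -0.44 to 0.47 without single arrays), Sptssb (-0.40 with array weights, -0.46 to 0.36 without single arrays) and Abca12 (0.16 with series or series 2 alone). Between KO and WT under acute DSS, array weights gave -0.61 for Sptssb, 0.0681 for Clca4b, -0.86 for Abca12 and -0.33 for Slc3a1. Series gave -0.30 for Sptssb, 1.09 for Clca4b, -1.17 for Abca12 and 0.59 for Dhrs9. The epithelial mean gave -0.86 for Sptssb, -0.48 for Abca12 and -1.01 for Slc3a1, and leaving out the low epithelial arrays -0.67, -0.51 and -0.86. Without single arrays the range was -0.18 to 0.80 for Sptssb, -0.61 to 0.10 for Clca4b and -0.16 to 1.00 for Slc3a1. The cause was not tested.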
